A study of Mus musculus with 18 samples.

Results

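Neutrophils sorted from the bone marrow of WT mice were compared after 24 h and after 4 h in GM-CSF, which sets the late phase of the response beside its early phase. Both groups were chosen by their labels, WT GM-CSF 24h and WT GM-CSF 4h, with 3 libraries each, so that 6 of the 18 libraries of the series enter the comparison. The mice were 10 weeks old, and no strain or other allele is given for the WT animals. Cells of both groups were held in RPMI1640 medium with serum and antibiotics and 100 ng/mL GM-CSF, and they differ only in the time given. WT neutrophils lysed right after sorting, labelled WT unstimulated, are given beside them as levels. The libraries labelled CIS-/- GM-CSF 24h and CIS-/- GM-CSF 4h, from mice lacking the cytokine-signalling inhibitor CIS per the labels, are used only to see where the WT change differs. No group cultured without GM-CSF was analysed here, so time in culture and time in GM-CSF cannot be told apart. Nothing in the labels ties replicates to separate mice, and p-values then measure only the spread between these libraries.

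Neutrophils are short-lived granulocytes that leave the bone marrow with their granule proteins already made. GM-CSF binds a receptor of a specific alpha chain and a beta chain shared with other cytokines, which activates JAK2 and STAT5. In neutrophils it is known for prolonging survival and for raising cytokine release and antimicrobial function.

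Read counts per library ran from 15818310 to 22455449 at 24 h and from 13679004 to 15967505 at 4 h. Levels are given as CPM, counts relative to the size of the library, with sizes scaled by TMM, a method that centres most genes on no change. A ± on a level is the SD over 3 libraries, and a ± on a log2 fold change is its standard error. A gene was called when edgeR's quasi-likelihood test gave a Benjamini-Hochberg adjusted p under 0.05 over the 11569 genes tested. In bulk RNA, a lower level may come from fewer cells of a type or from less RNA per cell, and these cannot be told apart.

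Most of the measured transcriptome differed between 24 h and 4 h. Of 11569 genes, 4128 rose (35.7%) and 4586 fell (39.6%), and the 3 libraries of each time did not overlap for 76.8% of genes. All counts for gene lists and all remarks on overlap below are to be read beside these shares. A list near them shows nothing particular to its members. The change was at least 2-fold for 1598 higher genes (13.8%) and 1865 lower genes (16.1%). Large falls outnumbered large rises, since 303 genes were at least 8-fold lower and 85 at least 8-fold higher. The median log2 fold change of all genes was -0.04. The split between directions rests on the scaling: with library sizes alone, 6763 genes were higher and 2506 lower, and the median log2 fold change of all genes was 0.45, a shift of 0.48. With TMM scaling, abundant genes were more often lower than scarce ones. In the quartile of genes with the highest mean level, 724 rose and 1865 fell, with a median log2 fold change of -0.32, while in the second lowest quartile 1355 rose and 858 fell, with a median of 0.24. The trend was not steady, since in the lowest quartile 706 rose and 827 fell, with a median of -0.06.

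The most abundant transcripts took a smaller share of the counts at 24 h. The top 10 genes held 7.91 to 8.02% of counts in the 24 h libraries and 9.81 to 9.85% in the 4 h libraries. S100a9, a subunit of the calcium-binding protein calprotectin, led at both times with 1.24 ± 0.021% of counts at 24 h and 2.31 ± 0.031% at 4 h. Its partner S100a8 held 0.986 ± 0.048% of counts at 24 h and 1.36 ± 0.047% at 4 h. Fth1, the ferritin heavy chain that stores iron, held 1.13 ± 0.024% of counts at 24 h and 1.76 ± 0.013% at 4 h. Mmp9, a gelatinase of neutrophil granules, held 0.932 ± 0.013% of counts at 24 h and 0.476 ± 0.0055% at 4 h, and Csf3r, the G-CSF receptor, held 0.758 ± 0.0082% of counts at 24 h and 0.430 ± 0.0079% at 4 h. Ltf, lactoferrin, and Ngp, neutrophilic granule protein, were among the 10 largest at 4 h but not at 24 h: Ltf held 0.0335 ± 0.00055% of counts at 24 h and 0.564 ± 0.0055% at 4 h, and Ngp held 0.0456 ± 0.0010% of counts at 24 h and 0.657 ± 0.0069% at 4 h.

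Interferon-induced genes made up most of the largest falls. Among the 15 called genes with the steepest decline and at least 10 CPM in a group were Ifit3, Gbp2, Gbp3, Ifit3b, Nlrc5, Ifit2, Gbp5, Herc6, Xaf1, Rsad2 and Ifi47. The other 4 were Lrrc3, Dmpk, Chil5 and Plac8. Plac8 measured 1.35, 1.46 and 1.57 CPM at 24 h, against 109, 114 and 104 CPM at 4 h, and its log2 fold change was -6.22 ± 0.09. Dmpk, the kinase whose human gene carries the myotonic dystrophy repeat, measured 0.186, 0.174 and 0.0490 CPM at 24 h, against 14.5, 15.2 and 15.6 CPM at 4 h.

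The largest rises had no such common family. Tmcc3, a coiled-coil protein of the endoplasmic reticulum, measured 53.0, 54.9 and 53.7 CPM at 24 h, against 1.75, 1.43 and 1.69 CPM at 4 h, with a log2 fold change of 5.05 ± 0.11. Abcc3, an exporter of conjugated organic anions, measured 27.9, 27.6 and 28.7 CPM at 24 h, against 1.60, 1.29 and 1.69 CPM at 4 h. No library of either time overlapped the other group for either gene. Enah, an actin regulator of the Ena/VASP family, reached 671 ± 8.7 CPM at 24 h and 82.6 ± 0.40 at 4 h, with 1.73 ± 0.22 CPM in unstimulated cells. Lipa, the lysosomal acid lipase that frees cholesterol from its esters, averaged 673 ± 27 CPM at 24 h and 88.6 ± 0.42 at 4 h, a log2 fold change of 2.93 ± 0.04. Cbx7, a Polycomb protein, averaged 97.5 ± 1.4 CPM at 24 h and 12.7 ± 0.70 at 4 h. Cbx7 and Pkd1, at 54.2 ± 4.3 CPM at 24 h and 6.44 ± 0.19 at 4 h, overlap a gene on the opposite strand, and no strand setting of the counts is known here. Other rises of the top 15 were Snai3, Ddt, Tbc1d4, Lrrc45, Pot1b and the sterol enzymes Lss, Cyp51 and Sqle, with log2 fold changes from 2.91 ± 0.09 for Sqle to 3.93 ± 0.17 for Snai3.

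**Figure D1:**
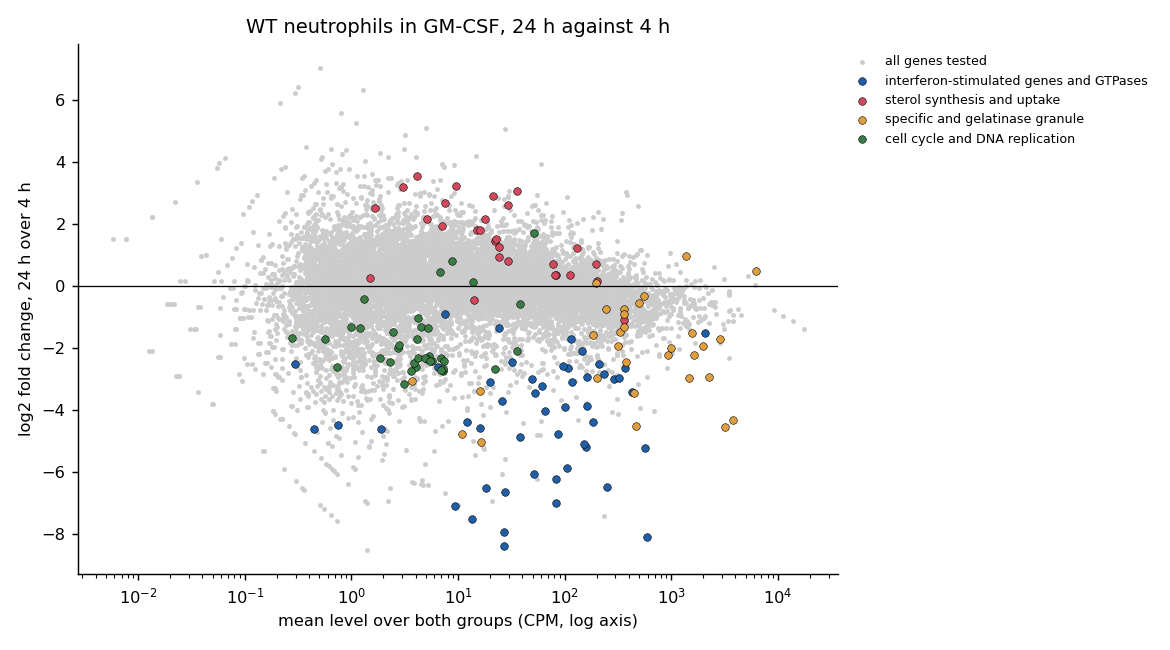
Log2 fold change of WT neutrophils, 24 h over 4 h, against mean level over both groups on a log axis, in CPM, 1 point per gene tested (11569), with members of 4 gene lists in colour. Interferon-stimulated genes and inducible GTPases all lie below 0, cell cycle and specific granule genes mostly below 0, and sterol synthesis genes mostly above 0.

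Interferons signal through receptor-bound JAK kinases to a complex that holds STAT2 and IRF9 and binds the interferon-stimulated response element (ISRE) in the promoters of antiviral genes. Both groups of interferon genes were lower at 24 h without exception among the members tested. Of 44 antiviral interferon-stimulated genes listed, 37 passed the filter on low counts and 37 fell, with a median log2 fold change of -3.71. All 12 of the 18 listed interferon-inducible GTPases that passed it fell as well, with a median of -4.53. These compare with 39.6% of all genes called lower and a median of -0.04. The filter keeps genes that are high in 1 group only.

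Ifit3, an RNA-binding antiviral protein, measured 0.186, 0.139 and 0.147 CPM at 24 h, against 51.2, 55.5 and 55.5 CPM at 4 h. All 3 libraries at 24 h were below 0.2 CPM, under the 10.5 ± 1.4 CPM of unstimulated cells, and its log2 fold change was -8.37 ± 0.15 (edgeR adjusted p = 1.1e-49). Gbp2, a guanylate-binding GTPase that acts on pathogen vacuoles, measured 4.24, 4.49 and 4.02 CPM at 24 h, against 1142, 1165 and 1212 CPM at 4 h, with 31.7 ± 1.1 CPM in unstimulated cells. Its log2 fold change was -8.10 ± 0.06 (edgeR adjusted p = 2.3e-71). The related Gbp3 measured 0.140, 0.348 and 0.0981 CPM at 24 h, against 54.5, 51.9 and 54.7 CPM at 4 h, and Gbp5, which promotes inflammasome assembly, measured 1.40, 1.29 and 1.13 CPM at 24 h, against 160.5, 164 and 166 CPM at 4 h. Rsad2, the antiviral enzyme viperin, measured 5.49, 5.42 and 5.79 CPM at 24 h, against 490.2, 499 and 507 CPM at 4 h. Isg15, a ubiquitin-like modifier, measured 2.14, 1.18 and 1.42 CPM at 24 h, against 102, 102 and 104 CPM at 4 h. For each of these 6 genes the highest 24 h library was far below the lowest 4 h library.

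Promoters of these genes except Gbp5 are shown because the members fell together. Only windows that held a match were printed, so a match in each one shown was set by that choice. Sequences are from RefSeq on GRCm38.p6, as 180 bases upstream of the annotated start, 5′ to 3′ on the gene's strand. Capitals mark matches to the ISRE letters GAAANNGAAA on either strand.
Ifit3, chr19:34583349-34583528, + strand: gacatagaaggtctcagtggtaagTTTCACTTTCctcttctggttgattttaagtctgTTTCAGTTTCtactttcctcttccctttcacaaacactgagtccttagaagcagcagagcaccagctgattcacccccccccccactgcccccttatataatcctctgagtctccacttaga
Gbp2, chr3:142620483-142620662, + strand: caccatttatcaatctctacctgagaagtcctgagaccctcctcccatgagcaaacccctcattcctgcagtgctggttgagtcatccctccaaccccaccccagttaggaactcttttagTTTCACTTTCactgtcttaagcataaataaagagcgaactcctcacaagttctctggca
Gbp3, chr3:142559864-142560043, + strand: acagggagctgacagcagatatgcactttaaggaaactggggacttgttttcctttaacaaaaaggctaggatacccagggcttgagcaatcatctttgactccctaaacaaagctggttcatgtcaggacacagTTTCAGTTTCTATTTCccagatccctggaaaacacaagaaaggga
Isg15, chr4:156200819-156200998, - strand: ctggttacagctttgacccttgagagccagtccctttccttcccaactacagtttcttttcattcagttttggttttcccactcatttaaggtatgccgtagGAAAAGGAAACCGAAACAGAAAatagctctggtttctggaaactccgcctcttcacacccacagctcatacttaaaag
Rsad2, chr12:26456453-26456632, - strand: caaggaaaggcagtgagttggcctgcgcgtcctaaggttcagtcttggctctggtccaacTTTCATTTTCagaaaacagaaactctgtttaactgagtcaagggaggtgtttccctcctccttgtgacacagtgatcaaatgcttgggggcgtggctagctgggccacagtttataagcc
In Ifit3 the matches started 156 and 122 bases upstream of the start. Those of Gbp3 began 45 and 39 bases upstream and overlap, as do the 3 of Isg15 between 78 and 66 bases upstream. Gbp2 had 1 match at 59 bases and Rsad2 had 1 at 120 bases. In windows from 250 bases before to 50 after the start, 17 of 28 tested antiviral genes with a promoter entry held the letters (60.7%). So did 8 of 9 GTPases (88.9%). The share was 4.02% of the 8615 tested genes with an entry and 3.99% of all 27025 genes of the table. Among genes at least 8-fold lower at 24 h it was 15.2%, among genes at least 2-fold lower 8.7%, and among genes at least 2-fold higher 1.81%. A match describes letters and not binding.

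Other antiviral genes fell to different depths. Oas3, a sensor of double-stranded RNA that makes oligoadenylates, averaged 29.8 ± 0.32 CPM at 24 h and 1102 ± 18 at 4 h. Zbp1, a sensor of Z-form nucleic acid that can trigger cell death, averaged 8.55 ± 0.19 CPM at 24 h and 311 ± 6.7 at 4 h. Cmpk2, a mitochondrial nucleotide kinase, averaged 8.77 ± 0.25 CPM at 24 h and 298 ± 9.3 at 4 h, and Slfn5, a Schlafen family member, averaged 16.8 ± 0.70 CPM at 24 h and 351 ± 14 at 4 h. Oasl2 fell least among members above 100 CPM and stayed abundant, with 1082 ± 17 CPM at 24 h and 3097 ± 85 at 4 h against 167 ± 3.2 CPM in unstimulated cells. Bst2, tetherin, which holds budding virions at the membrane, measured 1.49, 0.904 and 0.932 CPM at 24 h, against 23.5, 20.1 and 25.4 CPM at 4 h. Cxcl10, an interferon-induced chemokine, had the smallest fall of the antiviral list, at 5.22 ± 0.64 CPM at 24 h and 9.79 ± 0.088 at 4 h and a log2 fold change of -0.91 ± 0.13. Among the GTPases, Ifi47 averaged 2.19 ± 0.17 CPM at 24 h and 164 ± 1.9 at 4 h, Gbp7 74.2 ± 3.3 CPM at 24 h and 784 ± 17 at 4 h, Igtp 12.5 ± 1.5 CPM at 24 h and 188 ± 5.0 at 4 h and Irgm2 54.3 ± 2.2 CPM at 24 h and 234 ± 8.2 at 4 h. Ifit3 and Ifit3b, and the Gbp genes, are near copies within clusters, so reads may be split among them.

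**Figure D2:**
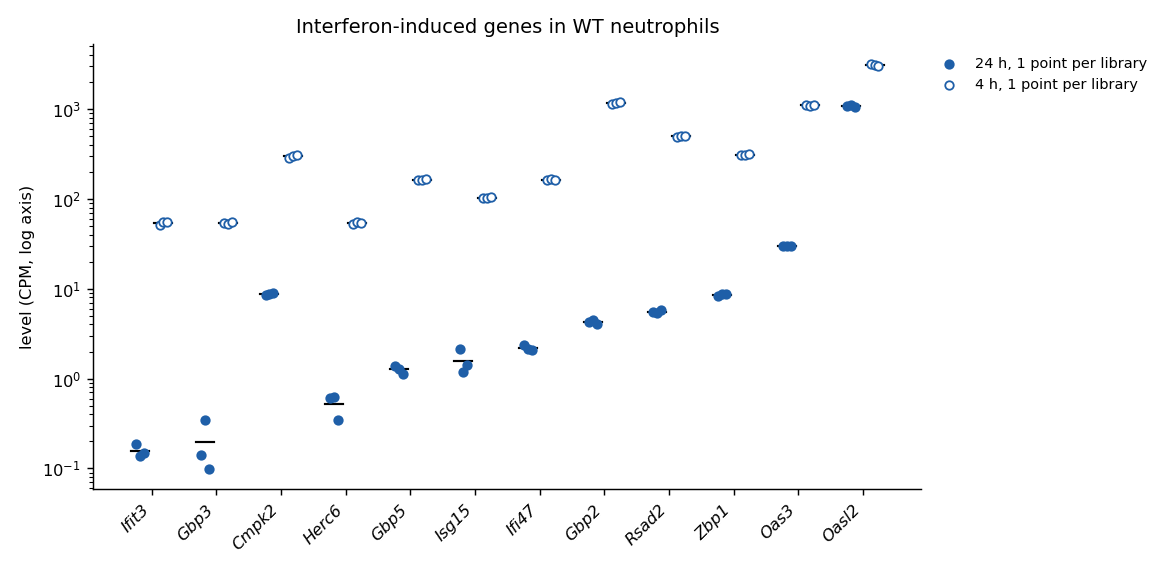
Level of 12 interferon-induced genes in each WT library, in CPM on a log axis, with 24 h libraries (filled) left of 4 h libraries (open) for each gene, and the mean as a bar. Every 24 h library lies below every 4 h library, from Ifit3 under 0.2 CPM at 24 h to Oasl2 at 1082 ± 17 CPM at 24 h.

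Genes that carry the interferon signal were mostly lower too. Of 13 signalling genes tested, 12 fell and 1 rose (8 lower and 4 higher with library sizes alone), with a median log2 fold change of -0.98. Of all genes, 39.6% fell and 35.7% rose. Usp18, a protease that removes ISG15 and limits receptor signalling, averaged 1.81 ± 0.22 CPM at 24 h and 32.8 ± 1.5 at 4 h. Irf7, the factor that amplifies type I interferon, averaged 21.5 ± 1.3 CPM at 24 h and 296 ± 4.4 at 4 h. Stat2 averaged 47.3 ± 0.80 CPM at 24 h and 179.9 ± 2.1 at 4 h and Irf9 54.7 ± 0.51 CPM at 24 h and 262 ± 2.1 at 4 h. The receptor chain Ifnar2 had a log2 fold change of -0.98 ± 0.04 and Ifngr1 one of -0.76 ± 0.03. Tyk2, a receptor-bound JAK kinase, rose by 1.03 ± 0.05.

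Antigen presentation by MHC class I moved with the interferon genes. Of 23 genes tested, 18 fell and 4 rose, with a median log2 fold change of -1.52. Nlrc5, the transactivator of class I genes, measured 2.75, 2.504 and 3.14 CPM at 24 h, against 477, 455 and 479.9 CPM at 4 h, with 9.35 ± 0.61 CPM in unstimulated cells. No 24 h library came near a 4 h library, and its log2 fold change was -7.41 ± 0.07. The peptide transporter Tap1 averaged 58.4 ± 2.9 CPM at 24 h and 298 ± 9.8 at 4 h, and the immunoproteasome subunit Psmb8 40.6 ± 1.2 CPM at 24 h and 218 ± 6.8 at 4 h. The light chain B2m averaged 502 ± 23 CPM at 24 h and 1275 ± 18 at 4 h. Among the heavy chains, H2-D1 stayed abundant at 2641 ± 58 CPM at 24 h and 4533 ± 122 at 4 h, and H2-K1 was not called, with 642 ± 21 CPM at 24 h and 616 ± 15 at 4 h. H2 genes share sequence, so their separation is uncertain. The chaperone Calr rose, at 182 ± 0.36 CPM at 24 h and 102 ± 2.5 at 4 h.

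Class II and costimulatory genes were mixed, with 3 higher and 7 lower of 16 tested (7 lower and 6 higher with library sizes alone). H2-Ab1 averaged 0.282 ± 0.11 CPM at 24 h and 3.40 ± 0.38 at 4 h and H2-Eb1 0.388 ± 0.18 CPM at 24 h and 8.44 ± 1.3 at 4 h, while the invariant chain Cd74 rose slightly to 62.0 ± 1.7 CPM at 24 h, against 52.4 ± 2.2 at 4 h. Cd274, the checkpoint ligand PD-L1, averaged 157 ± 3.4 CPM at 24 h and 364 ± 4.2 at 4 h, with 11.9 ± 0.47 CPM in unstimulated cells. Cd80 averaged 39.5 ± 1.5 CPM at 24 h and 101 ± 5.0 at 4 h and Cd86 5.22 ± 0.24 CPM at 24 h and 18.0 ± 1.2 at 4 h. Pdcd1lg2, the ligand PD-L2, went the other way, at 20.6 ± 1.8 CPM at 24 h and 12.4 ± 0.96 at 4 h.

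Components of the GM-CSF receptor pathway moved in both directions. Of 26 tested, 17 fell and 7 rose (7 lower and 18 higher with library sizes alone) with a median log2 fold change of -0.32, which turned positive with library sizes alone, and 1 fell at least 2-fold. That member was Ptpn1, a phosphatase that acts on JAK2, with 886 ± 10.1 CPM at 24 h and 1922 ± 31 at 4 h. The shared beta chain Csf2rb averaged 1169 ± 20.3 CPM at 24 h and 1841 ± 29 at 4 h and Jak2 548 ± 22 CPM at 24 h and 906 ± 12 at 4 h. Csf2rb2, the beta chain of the IL-3 receptor, was not called, with 376 ± 8.1 CPM at 24 h and 371 ± 12 at 4 h. Stat5a rose to 24.5 ± 1.1 CPM at 24 h, against 18.0 ± 1.3 at 4 h, and Stat5b had a log2 fold change of 0.10 ± 0.04, which was not called without 4 h replicate 2, at 0.088.

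SOCS genes encode feedback inhibitors of cytokine signalling, and their members differed. Socs3 measured 333, 322 and 335 CPM at 24 h, against 986, 979.9 and 1004 CPM at 4 h, a log2 fold change of -1.59 ± 0.03. Socs1 measured 88.8, 84.0 and 93.1 CPM at 24 h, against 242, 237 and 257 CPM at 4 h, a log2 fold change of -1.47 ± 0.04, with 12.6 ± 0.77 CPM in unstimulated cells. Cish, which encodes CIS, measured 1069, 1056 and 1056 CPM at 24 h, against 1155, 1138 and 1153 CPM at 4 h, with 6.50 ± 0.019 CPM in unstimulated cells. Its groups did not overlap, but the log2 fold change of -0.12 ± 0.03 was small. It was not called without the count filter or with upper-quartile scaling, at -0.021, and turned positive with library sizes alone. Socs2 rose by 1.01 ± 0.29 but stayed low, at 1.76 ± 0.052 CPM at 24 h and 0.863 ± 0.29 at 4 h. Targets associated with STAT5 were lower in 16 of 20 tested and higher in 2 (13 lower and 4 higher with library sizes alone), with a median log2 fold change of -0.77. The cyclin Ccnd2 averaged 10.8 ± 0.40 CPM at 24 h and 85.8 ± 1.7 at 4 h, Id2, an inhibitor of helix-loop-helix factors, 7.79 ± 0.68 CPM at 24 h and 29.6 ± 1.7 at 4 h, and Bcl2l1, which encodes the survival protein BCL-XL, 186 ± 3.9 CPM at 24 h and 413 ± 13 at 4 h. The kinase gene Pim1 was not called, with 1384 ± 15 CPM at 24 h and 1382 ± 9.8 at 4 h, and Pim3 rose to 10.6 ± 1.1 CPM at 24 h, against 3.70 ± 0.49 at 4 h. Tnfrsf13b, the lymphocyte receptor TACI, rose to 623 ± 4.9 CPM at 24 h, against 456 ± 12 at 4 h, with 2.61 ± 0.34 CPM in unstimulated cells.

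Cytokine genes fell in 12 of 16 tested and rose in 2 (7 lower and 6 higher with library sizes alone), with a median log2 fold change of -0.71. Il15, a growth factor of NK and memory T cells, averaged 3.64 ± 0.45 CPM at 24 h and 77.1 ± 3.8 at 4 h. Il18, activated by the inflammasome, averaged 0.123 ± 0.067 CPM at 24 h and 3.87 ± 0.57 at 4 h, and Tgfb1 291 ± 9.3 CPM at 24 h and 678 ± 15 at 4 h. Il1rn, the IL-1 receptor antagonist, whose fall turned positive with library sizes alone, averaged 593 ± 19 CPM at 24 h and 821 ± 11 at 4 h, and Tnf was not called, with 69.0 ± 2.1 CPM at 24 h and 67.9 ± 3.1 at 4 h. Il1b had a log2 fold change of only -0.19 ± 0.04, which turned positive with library sizes alone. Mif, a cytokine with tautomerase activity, rose to 7.23 ± 0.55 CPM at 24 h, against 1.91 ± 0.19 at 4 h, and Ddt, which encodes its relative D-dopachrome tautomerase, averaged 17.1 ± 1.2 CPM at 24 h and 1.15 ± 0.21 at 4 h.

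Of 10 chemokine genes tested, 3 rose and 4 fell (4 lower and 4 higher with library sizes alone). Ccl6, the most abundant, was not called, at 6151 ± 166 CPM at 24 h and 5980.2 ± 53 at 4 h, and stood above the 1464 ± 24 CPM of unstimulated cells at both times. Ccl3 and Ccl4, which recruit leukocytes, moved apart: Ccl3 averaged 108 ± 4.5 CPM at 24 h and 65.8 ± 3.4 at 4 h and Ccl4 39.0 ± 1.2 CPM at 24 h and 88.5 ± 0.88 at 4 h. Cxcl2, a CXCR2 ligand, averaged 135 ± 8.7 CPM at 24 h and 103 ± 6.1 at 4 h, and its neighbour Cxcl3 24.1 ± 2.4 CPM at 24 h and 43.0 ± 1.6 at 4 h.

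Secreted mediators fell in 13 of 15 tested and rose in 2, with a median log2 fold change of -1.60. Spp1, osteopontin, measured 4.89, 6.22 and 5.59 CPM at 24 h, against 115, 114 and 117 CPM at 4 h, a log2 fold change of -4.35 ± 0.06. Chil5, a chitinase-like protein, measured 0.233, 0.0696 and 0.0490 CPM at 24 h, against 10.4, 10.1 and 10.8 CPM at 4 h. The groups did not overlap for either gene. Lgals3, galectin-3, averaged 403 ± 5.7 CPM at 24 h and 1278 ± 14 at 4 h, and Grn, progranulin, 237 ± 8.1 CPM at 24 h and 719 ± 15 at 4 h. Gdf15, a stress-induced hormone, was the strongest rise of the list, at 5.04 ± 0.64 CPM at 24 h and 0.493 ± 0.079 at 4 h. F10, coagulation factor X, rose to 352 ± 7.0 CPM at 24 h, against 249.9 ± 4.5 at 4 h, with 0.545 ± 0.22 CPM in unstimulated cells.

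Of 28 NF-kB response genes tested, 14 were higher and 11 lower (4 lower and 21 higher with library sizes alone), with a median log2 fold change of 0.07. The precursor Nfkb1 averaged 178 ± 3.0 CPM at 24 h and 627 ± 9.5 at 4 h, while Nfkb2, of the alternative pathway, averaged 97.2 ± 4.0 CPM at 24 h and 50.9 ± 1.3 at 4 h. The feedback inhibitors Nfkbia and Tnfaip3 were not called, with Nfkbia at 227 ± 6.2 CPM at 24 h and 221 ± 4.8 at 4 h. Immediate-early genes were lower in 15 and higher in 7 of 25 tested (9 lower and 11 higher with library sizes alone). Fos averaged 27.9 ± 0.38 CPM at 24 h and 66.8 ± 1.3 at 4 h and Atf3, a stress-induced factor, 39.2 ± 1.2 CPM at 24 h and 91.9 ± 0.78 at 4 h, whereas Egr1 averaged 26.9 ± 0.76 CPM at 24 h and 13.2 ± 0.72 at 4 h, Egr3 11.1 ± 1.4 CPM at 24 h and 3.49 ± 0.76 at 4 h and Nr4a1 13.3 ± 1.3 CPM at 24 h and 5.03 ± 0.31 at 4 h. Fos stood far above both, at 1389 ± 7.8 CPM, in unstimulated cells. Of 10 MAP kinase phosphatases tested, 3 rose and 5 fell (3 lower and 4 higher with library sizes alone), with Dusp1 at 145 ± 4.1 CPM at 24 h and 273 ± 6.2 at 4 h and Dusp16 at 82.9 ± 2.7 CPM at 24 h and 40.0 ± 0.84 at 4 h.

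With TMM scaling more receptors of the cell surface were lower than higher. Chemoattractant receptors fell in 14 of 21 and rose in 3 (9 lower and 7 higher with library sizes alone). Cxcr4, which retains neutrophils in the marrow, averaged 95.4 ± 2.2 CPM at 24 h and 309 ± 5.4 at 4 h, and Cxcr2, which draws them out, 1835 ± 65 CPM at 24 h and 3408 ± 49.7 at 4 h. Ptafr, the receptor of platelet-activating factor, averaged 676 ± 17 CPM at 24 h and 1738 ± 27 at 4 h. C3ar1, the receptor of the complement fragment C3a, rose to 41.2 ± 2.5 CPM at 24 h, against 12.1 ± 1.4 at 4 h and was listed at 0 CPM in unstimulated cells. Cytokine receptors fell in 16 of 25 and rose in 7 (12 lower and 10 higher with library sizes alone): Il3ra averaged 2.17 ± 0.060 CPM at 24 h and 30.5 ± 1.8 at 4 h, Il1rap 67.0 ± 3.6 CPM at 24 h and 358 ± 9.7 at 4 h and Tnfrsf1b 263 ± 3.2 CPM at 24 h and 709.6 ± 29.9 at 4 h. Csf1r, the receptor of M-CSF, rose to 163 ± 1.3 CPM at 24 h, against 61.0 ± 1.3 at 4 h, though unstimulated cells held 265 ± 5.1 CPM. The decoy receptor Il1r2 rose to 1133 ± 47 CPM at 24 h, against 725 ± 15 at 4 h, and Csf3r rose to 5900.0 ± 64 CPM at 24 h, against 4689 ± 82 at 4 h.

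Fc, complement and phagocytic receptors fell in 14 of 19 and rose in 4 (10 lower and 8 higher with library sizes alone). Itgax, the integrin CD11c, averaged 20.2 ± 0.30 CPM at 24 h and 135 ± 5.0 at 4 h, and the activating Fc receptors Fcgr4 94.4 ± 3.8 CPM at 24 h and 242 ± 4.4 at 4 h and Fcgr3 1203 ± 15 CPM at 24 h and 2580.1 ± 31 at 4 h. Stab1, a scavenger receptor, rose to 55.6 ± 0.15 CPM at 24 h, against 11.5 ± 0.66 at 4 h. Pattern-recognition receptors fell in 20 of 27 and rose in 5 (14 lower and 9 higher with library sizes alone). Tlr2 averaged 353 ± 13 CPM at 24 h and 741 ± 7.5 at 4 h, Tlr1 9.70 ± 0.54 CPM at 24 h and 43.6 ± 3.0 at 4 h, Nod1 38.8 ± 1.5 CPM at 24 h and 175 ± 4.4 at 4 h and the glucan receptor Clec7a 842 ± 42 CPM at 24 h and 1629.8 ± 35 at 4 h. Clec4n, which encodes dectin-2, rose to 368 ± 5.0 CPM at 24 h, against 200.2 ± 6.2 at 4 h, with 7.76 ± 0.35 CPM in unstimulated cells.

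Inhibitory receptors fell in 14 of 18 and rose in 3 (9 lower and 6 higher with library sizes alone), and the exceptions were steep. Siglecf, a sialic acid-binding receptor of eosinophils that is also reported on tissue neutrophils, measured 52.1, 51.5 and 53.4 CPM at 24 h, against 6.47, 8.09 and 6.51 CPM at 4 h. Its groups did not overlap and its log2 fold change was 2.89 ± 0.08. Cd101, a marker of mature neutrophils, measured 578, 574 and 573 CPM at 24 h, against 114, 110.2 and 112 CPM at 4 h, with 445 ± 3.9 CPM in unstimulated cells and a log2 fold change of 2.36 ± 0.03. Lair1, a collagen receptor, averaged 10.3 ± 0.096 CPM at 24 h and 72.0 ± 2.1 at 4 h, and Cd33 1835 ± 59.8 CPM at 24 h and 4279 ± 55 at 4 h.

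Adhesion genes fell in 19 of 27 and rose in 7 (12 lower and 11 higher with library sizes alone). Ly6c2 averaged 45.4 ± 0.73 CPM at 24 h and 572 ± 21 at 4 h, Ly6g 57.0 ± 3.0 CPM at 24 h and 224 ± 2.4 at 4 h and Cd177 1348 ± 28 CPM at 24 h and 4430.5 ± 115 at 4 h; these surface proteins are used to identify neutrophils and monocytes. Pecam1, which supports passage through endothelium, averaged 53.1 ± 1.4 CPM at 24 h and 367 ± 7.7 at 4 h. The fibronectin receptor chain Itga5 rose to 16.5 ± 0.86 CPM at 24 h, against 7.45 ± 0.91 at 4 h.

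Granule genes were mostly lower. Specific and gelatinase granules are packed during maturation in the marrow, and of 30 of their genes tested 27 fell and 3 rose, with a median log2 fold change of -1.96. Ltf measured 265, 257 and 259.8 CPM at 24 h, against 6062, 6171 and 6208 CPM at 4 h, with 11377 ± 203 CPM in unstimulated cells. The log2 fold change of Ltf was -4.56 ± 0.04 (edgeR adjusted p = 2e-68). Camp, the precursor of cathelicidin, measured 40.4, 37.1 and 38.9 CPM at 24 h, against 928, 930.2 and 813 CPM at 4 h, with 2578 ± 65 CPM in unstimulated cells. Ngp measured 348, 365 and 353 CPM at 24 h, against 7082, 7212 and 7185 CPM at 4 h. All 3 stood in the order unstimulated, 4 h, 24 h from high to low. Lcn2, which binds bacterial siderophores, averaged 335 ± 3.4 CPM at 24 h and 2608 ± 47 at 4 h, Mmp8, neutrophil collagenase, 824 ± 36 CPM at 24 h and 3123 ± 76 at 4 h, and Retnlg 516 ± 18 CPM at 24 h and 3988 ± 164 at 4 h. Olfm4, present in a subset of neutrophils, averaged 75.8 ± 5.1 CPM at 24 h and 823 ± 19 at 4 h, with 402 ± 14 CPM in unstimulated cells. The exceptions were Mmp9 at 7256 ± 99.5 CPM at 24 h and 5191 ± 97 at 4 h, Hp, haptoglobin, at 1837 ± 19 CPM at 24 h and 936 ± 27 at 4 h, and Cd63, with a log2 fold change of 0.10 ± 0.04, which was not called without 24 h replicate 1, 4 h replicate 1 or 4 h replicate 3, at 0.082 to 0.090.

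Azurophil granule genes, which are transcribed earlier, were split 5 higher and 4 lower of 13 (3 lower and 7 higher with library sizes alone). Mpo, myeloperoxidase, was low and not called, with 4.68 ± 1.7 CPM at 24 h and 3.68 ± 0.93 at 4 h. Prtn3, proteinase 3, rose to 5.96 ± 0.68 CPM at 24 h, against 1.59 ± 0.51 at 4 h. Serpinb1a, an inhibitor of neutrophil elastase, fell to 19.7 ± 0.94 CPM at 24 h, against 237 ± 6.7 at 4 h. The cysteine protease inhibitors and S100 genes fell in 12 of 14 and rose in 1, with S100a9 at 9660.1 ± 198 CPM at 24 h and 25150.0 ± 498 at 4 h and S100a8 at 7676 ± 399 CPM at 24 h and 14870.0 ± 442 at 4 h. Stefins such as Stfa2l1, at 30.8 ± 2.7 CPM at 24 h and 193 ± 1.8 at 4 h, are near copies and their reads may be shared. Of 9 NADPH oxidase genes, 6 fell and 2 rose, though with library sizes alone 3 were lower and 4 higher. Cybb, the catalytic subunit, measured 114, 122 and 115 CPM at 24 h, against 631, 650.5 and 624 CPM at 4 h, with 1758 ± 42 CPM in unstimulated cells. Its log2 fold change was -2.44 ± 0.03, while the cytosolic subunit Ncf1 was not called, with 2091 ± 24 CPM at 24 h and 2101 ± 40.2 at 4 h.

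Among anti-apoptotic genes, 4 rose and 11 fell of 17 tested, against 7 and 5 with library sizes alone, and 3 of the 4 rises were copies of 1 gene. Bcl2a1a measured 67.1, 73.7 and 66.2 CPM at 24 h, against 18.1, 18.1 and 16.2 CPM at 4 h, with 0.571 ± 0.15 CPM in unstimulated cells. Bcl2a1b averaged 32.2 ± 0.41 CPM at 24 h and 11.9 ± 1.1 at 4 h and Bcl2a1d 19.6 ± 1.6 CPM at 24 h and 7.20 ± 0.44 at 4 h; these encode the BCL2 relative A1, and shared reads make their separation uncertain. Mcl1, a short-lived protein on which neutrophils depend, averaged 1554 ± 42 CPM at 24 h and 2107 ± 33 at 4 h, lower with TMM but not with library sizes alone. Of 22 pro-apoptotic genes, 9 rose and 10 fell (9 lower and 11 higher with library sizes alone). Pmaip1, NOXA, which binds MCL1, measured 107, 122 and 122 CPM at 24 h, against 32.8, 29.9 and 30.7 CPM at 4 h, a log2 fold change of 1.91 ± 0.06. Bcl2l11, BIM, averaged 96.1 ± 2.3 CPM at 24 h and 269.8 ± 4.5 at 4 h, Casp1 6.86 ± 0.40 CPM at 24 h and 43.7 ± 1.4 at 4 h and Casp8 44.7 ± 0.51 CPM at 24 h and 119 ± 2.2 at 4 h.

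Genes of cholesterol synthesis were mostly higher. Cells low in sterol release the factor SREBP2 from the endoplasmic reticulum, and it raises the enzymes of this pathway. Of 30 genes listed, 28 were tested, 25 rose (35.7% of all genes rose) and 2 fell, and the median log2 fold change was 1.48. Sqle, squalene epoxidase, measured 38.6, 38.8 and 36.4 CPM at 24 h, against 3.81, 5.10 and 6.27 CPM at 4 h, a log2 fold change of 2.91 ± 0.09 (edgeR adjusted p = 3.9e-36). Cyp51, which demethylates lanosterol and overlaps Akap9 on the opposite strand, measured 60.7, 65.0 and 64.0 CPM at 24 h, against 7.16, 7.68 and 7.88 CPM at 4 h. Lss, lanosterol synthase, measured 17.9, 18.1 and 15.7 CPM at 24 h, against 1.90, 1.63 and 2.09 CPM at 4 h. No 24 h library overlapped the 4 h libraries for these 3 genes. Idi1, the isoprenoid isomerase, averaged 7.60 ± 1.3 CPM at 24 h and 0.644 ± 0.18 at 4 h, and Insig1, which retains SREBP in the endoplasmic reticulum, 51.2 ± 0.79 CPM at 24 h and 8.36 ± 1.2 at 4 h. Npc1, which moves cholesterol out of lysosomes, was the largest fall of the list, at 228 ± 1.4 CPM at 24 h and 491 ± 10.4 at 4 h. In promoter windows, 1 of 20 tested members with an entry held the sterol element letters TCACNCCAC, beside 1.42% of tested genes.

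Export genes under the sterol receptor LXR went the other way, with 9 lower and 2 higher of 13 and a median log2 fold change of -2.16. Abca1, which loads cholesterol onto apolipoproteins, measured 1.12, 0.800 and 0.736 CPM at 24 h, against 34.2, 34.2 and 33.6 CPM at 4 h, a log2 fold change of -5.26 ± 0.12. Abcg1, a second exporter, measured 103, 94.1 and 99.3 CPM at 24 h, against 884, 853 and 907 CPM at 4 h, with 93.1 ± 4.5 CPM in unstimulated cells. Neither gene overlapped between the times. Mylip, a ubiquitin ligase under LXR, averaged 13.5 ± 1.0 CPM at 24 h and 73.9 ± 3.2 at 4 h, and Apoe 3.05 ± 0.23 CPM at 24 h and 14.4 ± 1.4 at 4 h. Srebf1, also a target of LXR in other cells, rose to 36.1 ± 2.0 CPM at 24 h, against 12.3 ± 2.1 at 4 h.

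**Figure D3:**
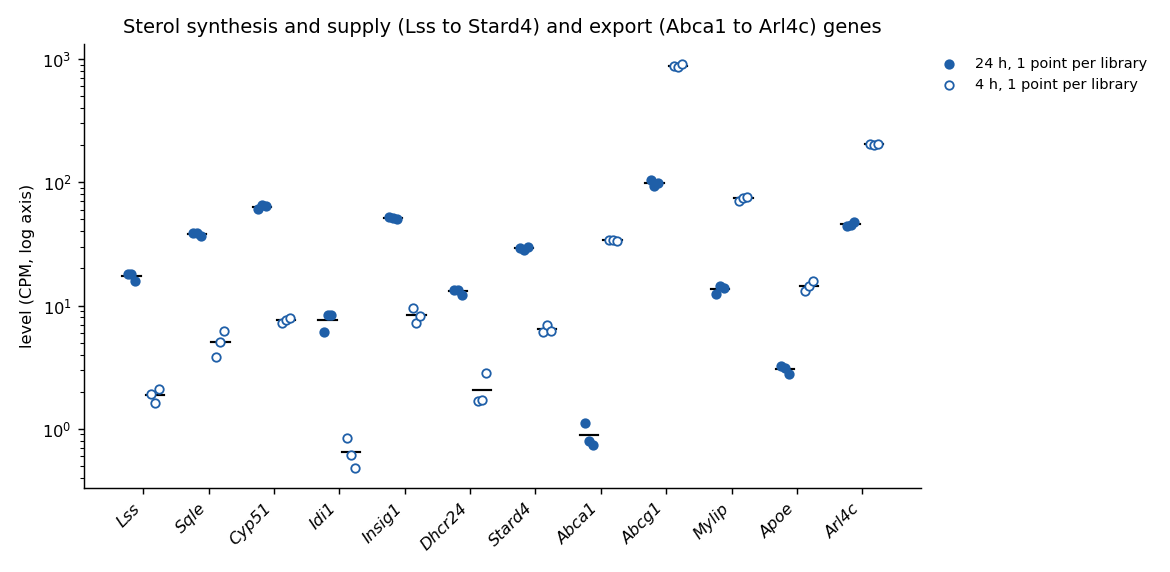
Level of 7 sterol synthesis and supply genes and 5 export genes in each WT library, in CPM on a log axis, with 24 h libraries (filled) left of 4 h libraries (open) and the mean as a bar. Each of the 7 is higher at 24 h in all 3 libraries, and each of the 5 is lower.

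Fatty acid and lipid-droplet genes divided, with 12 higher and 15 lower of 29 (10 lower and 17 higher with library sizes alone). Fasn, fatty acid synthase, rose to 10.0 ± 0.83 CPM at 24 h, against 2.05 ± 0.19 at 4 h, Acaca, acetyl-CoA carboxylase, to 10.1 ± 0.33 CPM at 24 h, against 1.87 ± 0.21 at 4 h and Acly, ATP citrate lyase, to 288 ± 8.6 CPM at 24 h, against 122 ± 2.0 at 4 h. Dgat2, which makes triglyceride, averaged 32.6 ± 0.17 CPM at 24 h and 127 ± 5.3 at 4 h, and the droplet coats Plin2 496 ± 3.9 CPM at 24 h and 876 ± 22 at 4 h and Plin3 97.7 ± 4.1 CPM at 24 h and 279 ± 5.4 at 4 h.

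Glycolytic genes fell in 15 of 21 and rose in 5 (9 lower and 7 higher with library sizes alone), with a median log2 fold change of -0.49. Ldha, lactate dehydrogenase, averaged 113 ± 3.8 CPM at 24 h and 387 ± 10.2 at 4 h, Hk2, a hexokinase, 52.3 ± 2.1 CPM at 24 h and 162 ± 1.2 at 4 h, and Gapdh 197 ± 7.3 CPM at 24 h and 425 ± 19 at 4 h. Pdk1, which inhibits pyruvate dehydrogenase, rose to 9.47 ± 0.89 CPM at 24 h, against 1.23 ± 0.30 at 4 h, and Aldoa, aldolase A, to 1323 ± 21 CPM at 24 h, against 631 ± 12 at 4 h. In the pentose phosphate and nucleotide list 12 fell and 5 rose of 18 (7 lower and 8 higher with library sizes alone), and G6pdx, its first enzyme and a source of NADPH, averaged 191 ± 7.0 CPM at 24 h and 653 ± 17 at 4 h. Nuclear genes of the respiratory chain rose in 18 of 39 and fell in 6 (1 lower and 36 higher with library sizes alone), with a median log2 fold change of 0.14, while all 8 mitochondrially encoded transcripts tested fell, with a median of -0.91. Ndufv1, of complex I, rose to 21.4 ± 0.97 CPM at 24 h, against 9.35 ± 0.66 at 4 h, and mt-Co1, of complex IV, averaged 87.3 ± 4.4 CPM at 24 h and 241 ± 5.0 at 4 h. Cycs, cytochrome c, fell to 1.60 ± 0.19 CPM at 24 h, against 9.09 ± 0.98 at 4 h. Of 18 genes around the tricarboxylic acid cycle 10 rose and 3 fell (1 lower and 15 higher with library sizes alone). Acod1, which makes itaconate, averaged 69.5 ± 1.4 CPM at 24 h and 394 ± 13 at 4 h, and the dehydrogenase subunit Idh3b rose to 24.4 ± 1.8 CPM at 24 h, against 8.28 ± 1.1 at 4 h. The hypoxia list was even, 7 higher and 7 lower (4 lower and 10 higher with library sizes alone), with the oxygen sensor Egln3 at 322 ± 9.1 CPM at 24 h and 855 ± 17 at 4 h and Egln1 at 29.8 ± 1.6 CPM at 24 h and 6.69 ± 0.41 at 4 h.

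Cytosolic ribosomal protein genes rose in 54 of 75 and fell in 5 (0 lower and 73 higher with library sizes alone), with a median log2 fold change of 0.35. Rpl8 averaged 185 ± 2.0 CPM at 24 h and 97.2 ± 2.3 at 4 h and Rpl10a 6.93 ± 0.95 CPM at 24 h and 3.25 ± 0.23 at 4 h, and 1 member rose at least 2-fold. These genes have many processed copies, so their counts are uncertain. Ribosome biogenesis genes rose in 20 of 31 and fell in 5, with a median of 0.89. Nolc1, a nucleolar phosphoprotein, averaged 7.02 ± 0.76 CPM at 24 h and 0.904 ± 0.20 at 4 h, and Bop1, of the large subunit assembly, 13.7 ± 0.43 CPM at 24 h and 3.63 ± 0.29 at 4 h. Heatr1, needed for early ribosomal RNA processing, was the outlying fall, at 14.1 ± 0.89 CPM at 24 h and 143 ± 4.6 at 4 h, with 3.30 ± 0.23 CPM in unstimulated cells.

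Cell cycle genes were low and fell in 32 of 37, with 3 higher and a median log2 fold change of -2.27. Mki67, a proliferation marker, measured 12.9, 13.8 and 13.9 CPM at 24 h, against 56.6, 54.1 and 62.8 CPM at 4 h, with 79.4 ± 3.1 CPM in unstimulated cells. Top2a, DNA topoisomerase II, averaged 6.05 ± 1.1 CPM at 24 h and 38.4 ± 0.92 at 4 h, Ccnb1, cyclin B1, 0.627 ± 0.23 CPM at 24 h and 5.59 ± 0.51 at 4 h, and Cdk1 0.921 ± 0.27 CPM at 24 h and 6.35 ± 0.79 at 4 h. Cdc25b, a phosphatase that activates cyclin-dependent kinases, rose to 79.3 ± 2.7 CPM at 24 h, against 24.0 ± 2.3 at 4 h.

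Most genes of the integrated stress response, in which ATF4 raises amino acid genes, were lower at 24 h. Of 23 genes tested, 19 fell and 2 rose (14 lower and 5 higher with library sizes alone), with a median log2 fold change of -0.88. Asns, asparagine synthetase, measured 3.49, 3.44 and 2.40 CPM at 24 h, against 27.5, 27.9 and 26.8 CPM at 4 h, a log2 fold change of -3.12 ± 0.10. Slc7a11, the cystine transporter, measured 263, 285 and 275 CPM at 24 h, against 1270.3, 1271 and 1260.0 CPM at 4 h, with 61.4 ± 2.1 CPM in unstimulated cells. Mthfd2, of mitochondrial folate metabolism, averaged 3.31 ± 0.44 CPM at 24 h and 36.7 ± 4.4 at 4 h, Trib3 5.05 ± 0.11 CPM at 24 h and 22.5 ± 1.2 at 4 h and the tRNA synthetase Aars 32.2 ± 1.1 CPM at 24 h and 98.3 ± 1.1 at 4 h. The Atf4 transcript itself was not called, with 135 ± 1.7 CPM at 24 h and 135 ± 3.0 at 4 h. The letters TGATGNAA of the amino acid response element were in 6 of 17 tested members with a promoter entry (35.3%), beside 2.79% of tested genes. They are shown in capitals for Asns and Slc7a11, as 180 bases upstream of the start on the gene's strand, from RefSeq on GRCm38.p6.
Asns, chr6:7693210-7693389, - strand: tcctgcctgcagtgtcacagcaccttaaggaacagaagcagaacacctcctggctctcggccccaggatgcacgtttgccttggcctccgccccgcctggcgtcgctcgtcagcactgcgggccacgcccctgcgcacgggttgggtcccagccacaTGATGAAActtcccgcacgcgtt
Slc7a11, chr3:50443614-50443793, - strand: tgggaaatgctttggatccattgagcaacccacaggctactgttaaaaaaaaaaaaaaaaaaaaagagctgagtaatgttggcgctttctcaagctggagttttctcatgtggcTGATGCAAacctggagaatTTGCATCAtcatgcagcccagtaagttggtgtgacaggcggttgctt
The match in Asns began 23 bases upstream, and those in Slc7a11 began 66 and 47 bases upstream.

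The unfolded-protein response was higher in 16 of 23 and lower in 7 (1 lower and 18 higher with library sizes alone), with a median log2 fold change of 0.42. Hsp90b1, a chaperone of the endoplasmic reticulum, averaged 133 ± 3.0 CPM at 24 h and 52.4 ± 2.5 at 4 h, Dnajc3 47.1 ± 1.3 CPM at 24 h and 17.0 ± 1.5 at 4 h and Pdia6 44.2 ± 1.3 CPM at 24 h and 20.6 ± 1.1 at 4 h. Hyou1, in the same compartment, fell to 88.2 ± 3.1 CPM at 24 h, against 206 ± 3.7 at 4 h, and Xbp1, a driver of the response, averaged 1119 ± 17 CPM at 24 h and 1518 ± 14 at 4 h, lower with TMM but not with library sizes alone. Heat-shock genes were split 7 higher and 6 lower of 19 (1 lower and 13 higher with library sizes alone). With TMM these shares were near those of all genes. Hsf1, the main regulator of heat-shock genes, rose to 17.5 ± 1.0 CPM at 24 h, against 3.53 ± 0.72 at 4 h.

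Redox genes under NRF2 fell in 14 of 22 and rose in 6, against 8 lower and 12 higher with library sizes alone. Mt1, a metallothionein, measured 1.07, 1.18 and 1.08 CPM at 24 h, against 54.9, 49.7 and 57.0 CPM at 4 h, a log2 fold change of -5.58 ± 0.11. Hmox1, haem oxygenase, measured 158, 168 and 171 CPM at 24 h, against 780.3, 775 and 807 CPM at 4 h. Both were higher in all 4 h libraries. Prdx1, a peroxiredoxin, rose to 41.0 ± 2.5 CPM at 24 h, against 9.68 ± 1.5 at 4 h, and the lipid peroxidase Gpx4 to 236 ± 10.1 CPM at 24 h, against 98.5 ± 3.1 at 4 h. Iron genes fell in 10 of 16 and rose in 4, against 7 lower and 8 higher with library sizes alone. Fth1 averaged 8824 ± 169 CPM at 24 h and 19163 ± 273 at 4 h, with 1694 ± 21 CPM in unstimulated cells, and Slc40a1, the iron exporter, 691 ± 27 CPM at 24 h and 1298 ± 33 at 4 h. Fech, which completes haem synthesis, rose to 14.8 ± 1.5 CPM at 24 h, against 3.43 ± 0.13 at 4 h.

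Lysosomal genes fell in 24 of 39 and rose in 12 (17 lower and 20 higher with library sizes alone), with a median log2 fold change of -0.26 that turned positive with library sizes alone. Cd68 averaged 75.3 ± 2.4 CPM at 24 h and 285 ± 9.9 at 4 h, the protease Ctss 78.8 ± 1.8 CPM at 24 h and 291 ± 7.5 at 4 h and the membrane protein Lamp1 332 ± 5.3 CPM at 24 h and 896 ± 20.3 at 4 h. Psap, the saposin precursor, rose to 3014 ± 79.7 CPM at 24 h, against 1981 ± 34 at 4 h. The proton pump that acidifies lysosomes fell in 14 of 16 subunits and rose in 1 (8 lower and 4 higher with library sizes alone), with a median of -0.62. Atp6v0d2, an inducible subunit, averaged 3.42 ± 0.37 CPM at 24 h and 19.6 ± 1.1 at 4 h, and Atp6v1e1 174 ± 4.3 CPM at 24 h and 546 ± 16 at 4 h. Autophagy genes fell in 17 of 21 and rose in 1 (2 lower and 13 higher with library sizes alone), with a median of -0.33 that turned positive with library sizes alone, and Atg7 averaged 133 ± 2.3 CPM at 24 h and 404 ± 4.7 at 4 h. Proteasome subunits were split 9 higher and 14 lower of 31 (3 lower and 21 higher with library sizes alone), and none changed 2-fold. With TMM the split was near the shares of all genes.

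Eicosanoid genes rose in 10 of 18 and fell in 6 (6 lower and 12 higher with library sizes alone). Ptgs1, COX-1, measured 247, 244 and 238 CPM at 24 h, against 54.8, 55.1 and 53.4 CPM at 4 h, a log2 fold change of 2.16 ± 0.04. Tbxas1, thromboxane synthase, measured 103, 102 and 96.5 CPM at 24 h, against 20.1, 21.5 and 20.01 CPM at 4 h, a log2 fold change of 2.29 ± 0.06. Ptgs2, COX-2, averaged 19.99 ± 1.6 CPM at 24 h and 8.29 ± 1.3 at 4 h, below the 185 ± 3.5 CPM of unstimulated cells. Alox5, of leukotriene synthesis, averaged 344 ± 10.5 CPM at 24 h and 584 ± 11 at 4 h and Lta4h 39.3 ± 0.46 CPM at 24 h and 97.0 ± 3.7 at 4 h, which were lower, and the helper Alox5ap was not called, with 851 ± 9.4 CPM at 24 h and 886 ± 16 at 4 h. Cysltr1, a receptor of cysteinyl leukotrienes, rose to 5.99 ± 1.0 CPM at 24 h, against 0.260 ± 0.25 at 4 h.

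Myeloid transcription factor genes fell in 20 of 35 and rose in 7 (15 lower and 14 higher with library sizes alone). Cebpa, which drives granulocyte fate, measured 47.3, 43.6 and 45.9 CPM at 24 h, against 11.7, 11.6 and 10.4 CPM at 4 h, with 52.9 ± 2.7 CPM in unstimulated cells and a log2 fold change of 2.01 ± 0.07. Mitf rose to 28.1 ± 0.27 CPM at 24 h, against 10.7 ± 0.95 at 4 h. Spi1, which encodes PU.1, averaged 506 ± 12 CPM at 24 h and 961 ± 32 at 4 h, the retinoid receptor Rxra 30.7 ± 1.2 CPM at 24 h and 120.4 ± 2.5 at 4 h and Gfi1 1.32 ± 0.28 CPM at 24 h and 4.65 ± 0.72 at 4 h. Src, Tec and Syk family kinases fell in 11 of 14 and rose in 1 (7 lower and 6 higher with library sizes alone). Syk averaged 1281 ± 13 CPM at 24 h and 2099 ± 42 at 4 h and Btk 156 ± 5.6 CPM at 24 h and 260.4 ± 5.7 at 4 h. Bmx rose to 43.3 ± 1.1 CPM at 24 h, against 28.8 ± 1.0 at 4 h.

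Genes that shape tissue and blood clotting were split, 12 lower and 5 higher of 21 tested (9 lower and 7 higher with library sizes alone). Plau, urokinase, averaged 5.90 ± 0.19 CPM at 24 h and 37.0 ± 2.5 at 4 h and its receptor Plaur 413 ± 8.2 CPM at 24 h and 1111 ± 3.6 at 4 h. Adam8, a membrane protease, averaged 582 ± 8.9 CPM at 24 h and 2719 ± 20.3 at 4 h, and Timp2, an inhibitor of matrix metalloproteinases, 109 ± 5.6 CPM at 24 h and 358 ± 8.9 at 4 h. Factor X, given above, had the largest called rise of the list. Genes reported in aged or tissue neutrophils moved both ways, and the steepest fall among them was Tgm2, a transglutaminase, which measured 34.5, 32.0 and 35.8 CPM at 24 h, against 589, 585 and 605 CPM at 4 h. Its groups did not overlap and its log2 fold change was -4.13 ± 0.04, with 28.0 ± 1.4 CPM in unstimulated cells. Among targets of p53, 6 rose and 6 fell of 14 (4 lower and 9 higher with library sizes alone). Sesn2, a stress-induced regulator of mTORC1, averaged 308 ± 2.7 CPM at 24 h and 678 ± 16 at 4 h, and Cdkn1a, the cyclin-dependent kinase inhibitor p21, 49.2 ± 0.75 CPM at 24 h and 75.8 ± 3.7 at 4 h, while Trp53 itself rose to 18.0 ± 1.2 CPM at 24 h, against 12.4 ± 0.84 at 4 h. Of 14 long noncoding RNAs tested, 3 rose and 3 fell (0 lower and 10 higher with library sizes alone), with a median log2 fold change of 0.06. At least 2-fold changes were 2 rises and 0 falls. Neat1, the scaffold of nuclear paraspeckles, averaged 1267 ± 28 CPM at 24 h and 1705 ± 122 at 4 h, lower with TMM but not with library sizes alone. Malat1 was not called, with 1110.4 ± 52 CPM at 24 h and 1202 ± 66 at 4 h.

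**Figure D4:**
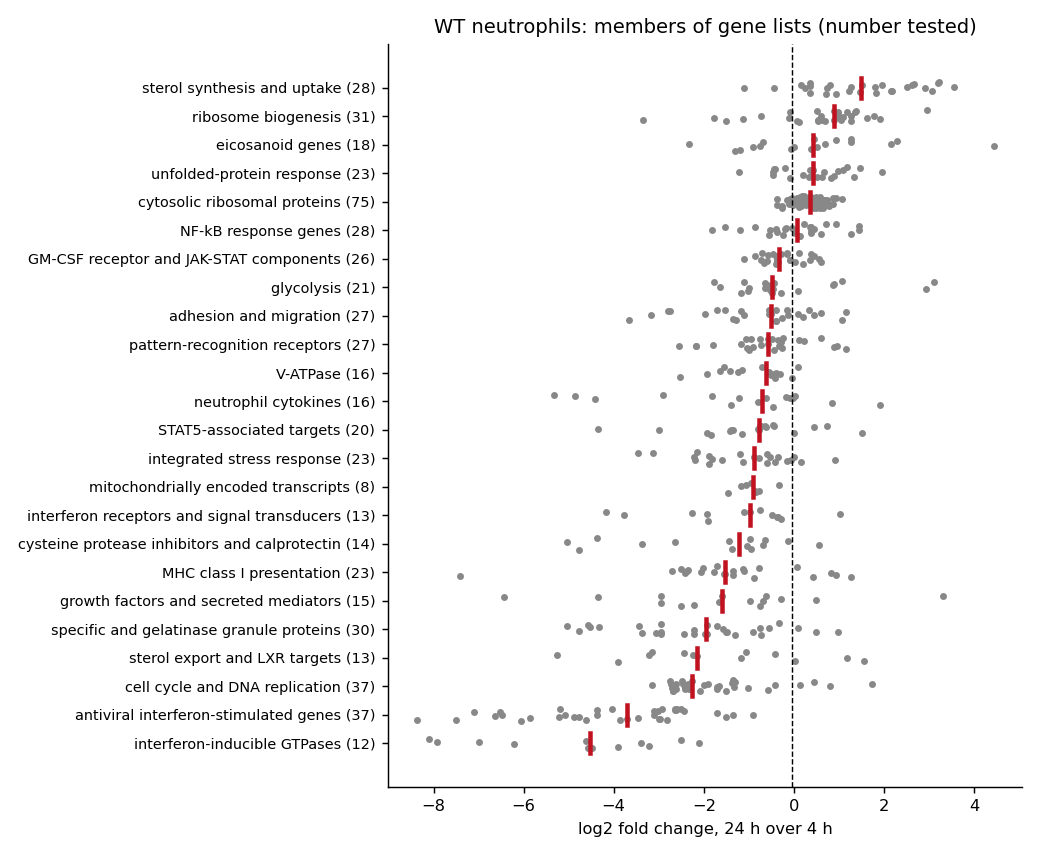
Log2 fold change of WT neutrophils, 24 h over 4 h, for the tested members of 24 gene lists (grey points) with the list median (red bar), ordered by median; the dashed line is the median of all 11569 genes, -0.04. Medians run from -4.53 for the inducible GTPases to 1.48 for sterol synthesis.

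The label of a neutrophil was set against markers. All 15 neutrophil markers listed were tested, and with TMM scaling 11 fell and 3 rose, with a median log2 fold change of -1.38. Their summed level ran from 37033 to 38485 CPM at 24 h and from 80487 to 81926 CPM at 4 h. Lymphoid markers were near 0 at both times, while lists of other lineages held abundant members. Cd3e was at or under 0.139 CPM in each WT library of the 2 times. Summed levels were 1.01 to 1.77 CPM at 24 h and 1.98 to 2.49 CPM at 4 h over 11 B cell markers, and 0.558 to 0.973 CPM at 24 h and 2.28 to 3.33 CPM at 4 h over 14 T and NK cell markers. The 17 monocyte and macrophage markers summed to 624 to 645 CPM at 24 h and 1010 to 1028 CPM at 4 h, and of 7 tested 3 rose and 3 fell. Adgre1, F4/80, rose to 344 ± 12 CPM at 24 h, against 95.8 ± 2.8 at 4 h, Fcgr1 rose to 7.54 ± 0.42 CPM at 24 h, against 2.44 ± 0.61 at 4 h and Csf1r rose as given above. Ly6c2 and Cd68 fell as given above, and F13a1, a clotting factor subunit, fell to 0.276 ± 0.061 CPM at 24 h, against 1.58 ± 0.31 at 4 h. C1qa, C1qb, C1qc and Mertk, which were not tested, averaged under 0.15 CPM in both groups. Dendritic cell markers summed to 24.9 to 25.2 CPM at 24 h and 161 to 173 CPM at 4 h, of which Itgax was the largest part, and Xcr1 was listed at 0. The 14 eosinophil and basophil markers summed to 61.8 to 72.3 CPM at 24 h and 19.6 to 26.4 CPM at 4 h. Siglecf made most of that difference, while Epx averaged 1.06 ± 0.75 CPM at 24 h and 2.49 ± 0.34 at 4 h and Il5ra was below 0.2 CPM in both groups. Over 11 erythroid markers the sum was 28.5 to 31.7 CPM at 24 h and 48.3 to 53.6 CPM at 4 h. The 10 progenitor markers summed to 199 to 202 CPM at 24 h and 141 to 154 CPM at 4 h, nearly all of it Kit, a growth factor receptor, at 187 ± 1.6 CPM at 24 h and 139 ± 5.8 at 4 h. The 10 stromal and endothelial markers summed to 72.4 to 75.7 CPM at 24 h and 396 to 409 CPM at 4 h, mostly Pecam1, which neutrophils also express, and Col1a1, a collagen chain, at 21.1 ± 1.5 CPM at 24 h and 37.4 ± 2.6 at 4 h, while Col1a2 was at or under 0.0761 CPM in each library. The 7 megakaryocyte and platelet markers summed to 13.6 to 15.9 CPM at 24 h and 22.2 to 26.3 CPM at 4 h, mostly Vwf, von Willebrand factor, at 10.4 ± 0.97 CPM at 24 h and 19.1 ± 1.1 at 4 h.

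Other genes associated with macrophages and dendritic cells split, 8 higher and 7 lower of 15 tested from 30 listed. Dab2, an endocytic adaptor, averaged 87.5 ± 3.6 CPM at 24 h and 23.2 ± 0.37 at 4 h, with 0.0179 ± 0.031 CPM in unstimulated cells, and Gpnmb, a lysosomal glycoprotein, 76.1 ± 2.5 CPM at 24 h and 29.6 ± 0.57 at 4 h. Lpl, lipoprotein lipase, averaged 9.97 ± 1.3 CPM at 24 h and 2.90 ± 0.28 at 4 h. Whether other cell types had a part in these or the other changes was not tested.

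The WT change was then set against the same times in the libraries labelled CIS-/-, which share no library with it. Cish measured 238, 243 and 233 CPM at 24 h, against 243, 240.4 and 237 CPM at 4 h in those libraries, set against 1056 to 1069 CPM at 24 h in WT, and so not at 0. The deleted part is not given, so the level alone does not check the label. Of 11569 genes, 7633 (66.0%) had a change between 4 h and 24 h that differed between genotypes by the interaction test, 3922 larger in CIS-/- (33.9%) and 3711 smaller (32.1%). With library sizes alone these were 2247 and 6154. TMM factors in libraries labelled CIS-/- were 0.884 to 0.894 at 24 h and 0.907 to 0.916 at 4 h, and in WT libraries 1.28 to 1.29 at 24 h and 0.910 to 0.922 at 4 h. Their part in these counts was not tested beyond the other scalings. Of 6997 genes called in both genotypes, 1997 moved in opposite directions (28.5%), of which 1171 were higher at 24 h in CIS-/- and lower in WT.

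Inflammatory genes differed between the genotypes. All 28 NF-kB response genes tested had a larger log2 change in CIS-/- by the interaction test, or 26 with library sizes alone, and the median was 2.48 in CIS-/- and 0.07 in WT. Of 10 chemokine genes tested, 9 had a larger change in CIS-/-, with a median of 4.61 in CIS-/- and -0.16 in WT, which was 0.12 without WT 4 h replicate 2. Cxcl3 averaged 2808 ± 180.1 CPM at 24 h and 46.0 ± 2.0 at 4 h in CIS-/-, set against 24.1 ± 2.4 CPM at 24 h and 43.0 ± 1.6 at 4 h in WT, and the difference of log2 changes was 6.76 ± 0.08 (edgeR adjusted p = 9.1e-47). Spp1 averaged 652 ± 33 CPM at 24 h and 91.9 ± 1.7 at 4 h in CIS-/- and fell in WT, a difference of 7.18 ± 0.07. Atp6v0d2 likewise differed by 5.84 ± 0.12, and all 16 V-ATPase genes had a larger change in CIS-/-, or 15 with library sizes alone. Shmt1, Cxcl16 and Hilpda completed the 6 largest positive differences; each was under 5 CPM in WT at both times.

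The largest negative differences were genes that rose in WT. Cd101 averaged 23.1 ± 0.58 CPM at 24 h and 166 ± 2.4 at 4 h in CIS-/-, a difference of -5.20 ± 0.06 (edgeR adjusted p = 3.6e-60). Bmx, a Tec family kinase, averaged 1.18 ± 0.15 CPM at 24 h and 25.6 ± 1.0 at 4 h in CIS-/-, a difference of -5.08 ± 0.13. Nat8l, Fbxo31, Abhd15 and Mettl7a1 made up the rest, with differences from -7.11 ± 0.41 for Nat8l to -4.29 ± 0.14 for Mettl7a1. Ribosomal protein genes also parted, with 59 of 75 smaller in CIS-/- and a median log2 change of -0.24 in CIS-/- and 0.35 in WT.

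Interferon, granule and sterol genes had medians of the same sign in both genotypes. The antiviral genes had a median log2 change of -3.54 in CIS-/- and -3.71 in WT, and the difference for Ifit3 was 0.49 ± 0.94 and not called (edgeR adjusted p = 0.667). Ifit3 held 11 counts over the WT 24 h libraries, so its difference is poorly measured. For the GTPases the medians were -5.44 in CIS-/- and -4.53 in WT. Specific granule genes had -2.12 in CIS-/- and -1.96 in WT, and sterol genes 2.14 in CIS-/- and 1.48 in WT. Single members still differed: of 37 antiviral genes, 18 had a larger and 10 a smaller log2 change in CIS-/-, but 9 and 16 with library sizes alone. Of 12 GTPases these were 2 and 5, or 0 and 7 with library sizes alone. For 30 specific granule genes they were 17 and 11, or 12 and 16. For 28 sterol genes they were 19 and 4, or 15 and 6.

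**Figure D5:**
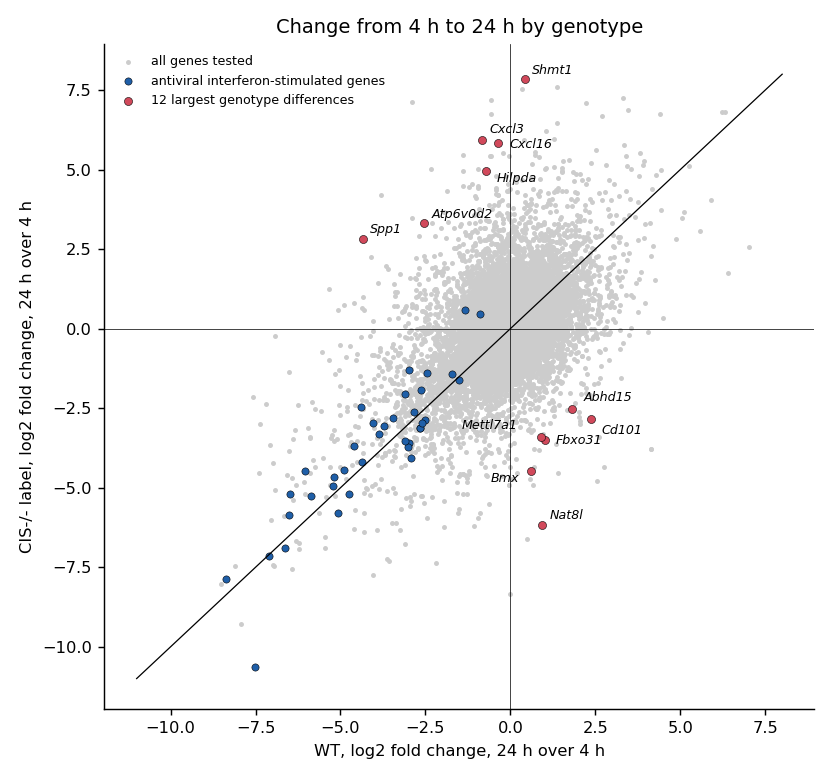
Log2 fold change from 4 h to 24 h in libraries labelled CIS-/- (vertical) against that in WT (horizontal), 1 point per gene tested, with the diagonal of equal change. The 12 genes with the largest genotype differences are named, and antiviral interferon-stimulated genes (blue) mostly lie near the diagonal at the lower left.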

How the data were processed

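The deposited table holds raw read counts per gene for 18 libraries in 6 groups of 3. Per the submitters' processing notes, Trimmomatic, STAR and featureCounts on mm10 were used by the authors; tool versions and the strand setting are not given in these sources. Titles and the extract protocol give 24 h for the late libraries where the treatment protocol gives 42 h, and 24 h is used. GENCODE M21 named 53274 of the 53379 IDs, and the other 105 held 0.0238% of counts.

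All 18 libraries were fitted in 1 model of 6 groups with edgeR 4.0.16 (R 4.3.3): filterByExpr by group, TMM factors, robust quasi-likelihood test, Benjamini-Hochberg adjustment. The filter kept 11569 genes with 99.928% of counts. Residual degrees of freedom were 12 and the biological coefficient of variation 3.3%. The genotype by time interaction came from the same model. Simulated counts put through this model had few changed genes and scored the WT contrast only, so they did not check the interaction. Depth was 12170524 to 22539858 counts per library, so that genes under about 1 CPM rest on few counts. Replicates differed beyond counting noise, with a chi-square per degree of freedom of 1.645 to 2.899.

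The groups, gene lists and markers were chosen with earlier results of these data known. Genes are named as the 15 largest called changes each way with at least 10 CPM in a group, the largest called members of each list with at least 5 CPM, members a sentence turns on, the 6 largest genotype differences each way, and the 10 largest shares of counts; some of these are not reported here. Alternatives covered scaling, filter, test (DESeq2 1.42.0, limma-voom 3.58.1), samples in the fit, a replicate block and each library left out.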

Additional observations from a re-analysis of the deposited data

Results flagged for a closer look

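The change between 4 h and 24 h differed between genotypes for 7633 of 11569 genes by edgeR's interaction test (adjusted p under 0.05), which is the reason for a closer look. Of the 273 genes named in the report or below, 21 had a called difference of at least 16-fold, given here as the log2 change in CIS-/- minus that in WT. It was positive for 15 of them. The difference was 7.40 for Shmt1, 7.18 for Spp1, 6.76 for Cxcl3, 6.20 for Cxcl16, 5.84 for Atp6v0d2 and 5.66 for Hilpda. Shmt1 overlaps a gene on the opposite strand.

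Inflammatory genes made up many of the rest. The difference was 5.55 for Cxcl2, which averaged 7482 ± 516 CPM at 24 h and 122 ± 6.0 at 4 h in CIS-/- and 135 ± 8.7 CPM at 24 h and 103 ± 6.1 at 4 h in WT. It was 4.83 for Ccl3, which averaged 3630.3 ± 371 CPM at 24 h and 77.7 ± 0.60 at 4 h in CIS-/- and 108 ± 4.5 CPM at 24 h and 65.8 ± 3.4 at 4 h in WT, and 4.13 for Ccl4, which averaged 746 ± 67 CPM at 24 h and 97.1 ± 5.2 at 4 h in CIS-/- and 39.0 ± 1.2 CPM at 24 h and 88.5 ± 0.88 at 4 h in WT. Ptgs2 differed by 4.70, with 535 ± 11 CPM at 24 h and 8.48 ± 0.79 at 4 h in CIS-/- and 19.99 ± 1.6 CPM at 24 h and 8.29 ± 1.3 at 4 h in WT, and Acod1 by 4.65, with 2018 ± 67 CPM at 24 h and 456 ± 3.1 at 4 h in CIS-/- and 69.5 ± 1.4 CPM at 24 h and 394 ± 13 at 4 h in WT. Hdc differed by 4.28, with 570.0 ± 23 CPM at 24 h and 486 ± 12 at 4 h in CIS-/- and 31.8 ± 2.4 CPM at 24 h and 527 ± 21 at 4 h in WT. Atf3 differed by 4.56 and the cystine transporter Slc7a11 by 4.14, where Slc7a11 averaged 4574 ± 403 CPM at 24 h and 1201 ± 33 at 4 h in CIS-/- and 274 ± 11 CPM at 24 h and 1267 ± 6.2 at 4 h in WT. The class II gene H2-Eb1 differed by 5.33, with 10.98 ± 2.3 CPM at 24 h and 5.33 ± 0.55 at 4 h in CIS-/- and 0.388 ± 0.18 CPM at 24 h and 8.44 ± 1.3 at 4 h in WT. In each of the genes of this paragraph the WT and CIS-/- levels at 4 h lay nearer to each other than those at 24 h. The choice of genes by the size of this difference makes that likely in advance, so it is no separate result.

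The difference was negative for 6 genes, at -7.11 for Nat8l, -5.20 for Cd101, -5.08 for Bmx, -4.53 for Fbxo31, -4.34 for Abhd15 and -4.29 for Mettl7a1. Abhd15 overlaps genes on the opposite strand. With library sizes alone the median difference of all genes moved to -0.53.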

How the results depend on the processing

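Of the 259 named genes called in WT, 24 h against 4 h, 9 lost the call under some alternative (Cd63, Cish, Epx, Hilpda, Il1rn, Mcl1, Neat1, Stat5b and Xbp1), 6 of them with library sizes alone, and 262 of 273 named genes kept their direction under every alternative. Library sizes alone gave 6763 genes higher and 2506 lower at 24 h, and 2247 genes with a larger and 6154 with a smaller change in CIS-/-. With a log2 change of at least 1 as a further condition, 3463 genes were called (1598 higher, 1865 lower), and 3659 in the interaction (2031 larger, 1628 smaller in CIS-/-). Leaving out 1 library at a time gave 8393 to 8574 genes called in WT, 3940 to 4088 of them higher and 4446 to 4486 lower, and 7390 to 7633 in the interaction, 3801 to 3961 larger and 3537 to 3700 smaller. DESeq2 called 8371 genes in WT and limma-voom 8711.

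Deviations of same-numbered 24 h and 4 h libraries had correlations of 0.0258, 0.124 and -0.0549. Those of other pairs ran from -0.119 to 0.0904. With 3 libraries a group, these values cannot show whether the numbers pair the libraries. A fit with the replicate number as a block called 8711 genes in WT (4128 higher, 4583 lower) and 7635 in the interaction (3922 larger, 3713 smaller in CIS-/-).

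With library sizes alone, which shift all genes up by 0.48, the log2 fold change turned positive for Alox5ap (0.430), Atf4 (0.478), Cish (0.371), Il1b (0.300), Il1rn (0.016), Malat1 (0.372), Mcl1 (0.048), Ncf1 (0.479), Neat1 (0.058), Tnfaip3 (0.449) and Xbp1 (0.046). So did the medians of class II genes (0.349), SOCS genes (0.353), GM-CSF receptor components (0.166), chemokines (0.321), immediate-early genes (0.061), MAP kinase phosphatases (0.048), NADPH oxidase (0.002), anti-apoptotic (0.048) and pro-apoptotic genes (0.294), p53 targets (0.484), fatty acid (0.350), hypoxia (0.433), NRF2 (0.137), iron (0.012), lysosomal (0.226), autophagy (0.157), proteasome (0.408) and heat-shock genes (0.392) and the Src, Tec and Syk kinases (0.014). Upper-quartile factors turned Ncf1 (0.087) and the hypoxia (0.042), proteasome (0.017) and heat-shock medians (0.001). A fit of only the compared groups turned the hypoxia (0.003) and heat-shock medians (0.122). The strict filter of 50 counts in 3 libraries, which tests fewer members, turned MAP kinase phosphatases (0.151) and macrophage-associated genes (-1.163). With 1 library left out, the chemokine median ran from -0.271 to 0.117 (positive without WT 4 h replicate 2) and the p53 median from -0.031 to 0.040. The p53 median, near 0, was positive with RLE factors (0.006), upper-quartile factors (0.093), no filter (0.028), only the compared groups (0.054), DESeq2 (0.008), and without 24 h replicate 1 (0.026), 24 h replicate 2 (0.010) or 4 h replicate 2. The cause of these turns was not tested beyond the shift.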

Other observations

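Several abundant genes outside the lists moved strongly between 24 h and 4 h; they were chosen after their values were seen, from called genes that reach 100 CPM at either time. Il1rl2, the receptor of IL-36, averaged 379 ± 6.4 CPM at 24 h and 84.7 ± 0.82 at 4 h, with 1.26 ± 0.20 CPM in unstimulated cells, a log2 fold change of 2.16 ± 0.04. Fam20c, a kinase of secreted proteins, averaged 162 ± 10.2 CPM at 24 h and 30.5 ± 1.9 at 4 h, with 1.59 ± 0.27 CPM in unstimulated cells, and Rnase4, a secreted ribonuclease, averaged 183 ± 4.1 CPM at 24 h and 25.2 ± 0.43 at 4 h, with 0.995 ± 0.37 CPM in unstimulated cells. These 3 genes were near 0 before culture and higher at 24 h than at 4 h in all 3 libraries.

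Arrb1, the adaptor beta-arrestin 1, followed another course, with 354 ± 2.0 CPM in unstimulated cells, 65.3 ± 1.3 CPM at 4 h and 345 ± 6.6 CPM at 24 h. Hdc, which makes histamine, had 988 ± 24 CPM in unstimulated cells, 527 ± 21 CPM at 4 h and 31.8 ± 2.4 CPM at 24 h, a log2 fold change of -4.05 ± 0.04 for 24 h over 4 h. Acvrl1, a receptor of the TGF-beta family, had 233 ± 4.2 CPM in unstimulated cells, 112 ± 4.1 CPM at 4 h and 4.05 ± 0.51 CPM at 24 h. Smad3, a signal transducer of that family, averaged 26.4 ± 1.4 CPM at 24 h and 223 ± 6.4 at 4 h, a log2 fold change of -3.07 ± 0.05. Wfdc17, a small secreted protein with a whey acidic protein domain, averaged 62.0 ± 2.5 CPM at 24 h and 947 ± 48 at 4 h, and Rnf213, a large ubiquitin ligase that interferon induces, averaged 80.3 ± 1.3 CPM at 24 h and 1312 ± 74 at 4 h. No 24 h library overlapped a 4 h library for Hdc, Acvrl1, Smad3, Wfdc17 or Rnf213.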
